A study of Mus musculus with 9 samples.

Results

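Macrophages are the main resident immune cells of skeletal muscle, where they lie in the connective tissue between fibers, clear debris, and support repair. The 34 genes described here were chosen by symbol, and they mark macrophages, other white blood cells, and the presentation of antigen. Of these, 32 were measured, with 1 row each among the 22206 gene rows of the arrays. *Cd68* and *Cd74* were not analysed here. The genes fall into 7 roles: myeloid identity and recruitment, the C1q complement proteins, surface proteins of leukocytes, Fc receptors with their signaling partners, macrophage surface and scavenging receptors, lysosome and effector proteins of phagocytes, and MHC class II.

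As background, macrophages depend on the growth factor receptor encoded by *Csf1r* and on the transcription factor PU.1, encoded by *Spi1*. Many of their surface receptors signal through the small adaptor proteins of *Fcer1g* and *Tyrobp*, which carry the ITAM motif. Macrophages, dendritic cells, and B cells take up protein, cut it in lysosomes with enzymes such as cathepsin S, and show the fragments to CD4+ T cells on MHC class II molecules, each made of an alpha and a beta chain.

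The muscle studied was the tibialis anterior (TA) of the hindlimb, composed mainly of fast fibers, collected at P28 from 3 Δ1w, 3 Δ2w, and 3 control mice. In both models the muscle fusion gene *Mymk* (Myomaker, written 8c in the labels) is deleted by *Pax7*CreER, a tamoxifen-dependent Cre recombinase that acts in satellite cells, which are muscle stem cells, and not in macrophages. Tamoxifen was given at P0 in Δ1w mice and at P6 in Δ2w mice. The labels list 55 nuclei per myofiber for Δ1w, 100 for Δ2w, and 233 for control mice. In the paper, such counts come from isolated fibers of another hindlimb muscle, the extensor digitorum longus, and not from the TA. The paper's count for Δ2w mice was made at a later age than P28. Among Δ1w mice, replicate 1 was 8c fl/fl; Pax7creER; mTmG/+, replicate 5 was 8c LacZ/fl; Pax7creER; mTmG/+, and replicate 8 was 8c fl/fl; Pax7creER with no mTmG reporter allele. All Δ2w mice (replicates 2, 3, and 4) were 8c LacZ/fl; Pax7creER; mTmG/+. Control replicates 1 and 6 were 8c LacZ/fl; mTmG/+ and control replicate 2 was 8c fl/fl; mTmG/+, all without the Cre allele. The labels record no tamoxifen for control mice, whereas the methods give it to every mouse. Values of single mice below follow the order of these replicate numbers in each group.

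Signals are log2 values, so that a difference of 1 is a doubling. *Mymk* was at 8.99, 7.49, and 7.94 in Δ1w muscle and at 8.39, 7.67, and 6.70 in Δ2w muscle, against 11.82, 12.03, and 11.61 in control muscle. The 7 skeletal muscle fiber markers averaged between 18.54 and 18.72 in every mouse. Whether signals this high can still follow a change was not tested. Y-linked genes were low in 1 mouse of each group (Δ1w replicate 8, Δ2w replicate 4, and control replicate 6), so the groups were alike in that respect. The 5222 negative control probes had a median of 5.77 to 6.25 per array, and their 95th percentile lay between 9.54 and 10.14. Between 24 and 28 of the 32 members exceeded the median of the negative probes on each array, and 3 to 10 exceeded the 95th percentile. Averaged over all mice, *Cx3cr1*, *Itgb2*, *Trem2*, *Cd14*, and *Lgals3* lay below the median of the negative probes, and changes of these 5 genes were measured near background. By the same average, only *Spi1*, *Laptm5*, *Fcgr3*, *Mrc1*, and *Lyz2* lay above the 95th percentile of the negative probes. All other members, among them *Csf1r*, *Cybb*, and the MHC class II genes, lay below that percentile, at signals that some negative probes also reached. No Δ1w mouse shared the prefix of its sample name with a control mouse, so that prefix and the Δ1w group cannot be told apart.

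Macrophage and antigen presentation genes were mostly at higher signal in Δ1w muscle than in control muscle. By role, the median log2 change in Δ1w muscle was 1.06 for MHC class II, 0.66 for Fc receptors and their adaptors, 0.61 for myeloid identity and recruitment, 0.58 for lysosome and effector genes, 0.52 for leukocyte surface genes, 0.28 for C1q, and 0.09 for surface and scavenging receptors. Differences between roles were not tested. Of 32 members, 28 had a positive log2 change in Δ1w muscle, whereas 49.7% of all gene rows did. The median change of the members was 0.56, beside −0.0023 over all gene rows. *Laptm5* was the only member that rose past an adjusted p of 0.05 from limma, fitted across all 22206 rows, where 0.905% of rows were called higher, and 0 members were called lower (0.500% of rows). With so few rows called, 0 calls among the genes of a role or list below is near these shares. At an unadjusted p under 0.05 there were 17 members higher in Δ1w muscle (7.20% of rows) and 1 lower (6.79%). In 11 members every Δ1w mouse lay above every control mouse (8.53% of rows), and in 1, *Ccl2*, every Δ1w mouse lay below (8.95%). These are RNA levels of whole muscle, in which more cells of a type and more RNA per cell cannot be told apart. From TA sections of both models, stained for laminin and nuclei, the paper reports no infiltration by immune cells. Its Δ2w sections came from an older age than these arrays.

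**Figure D1:**
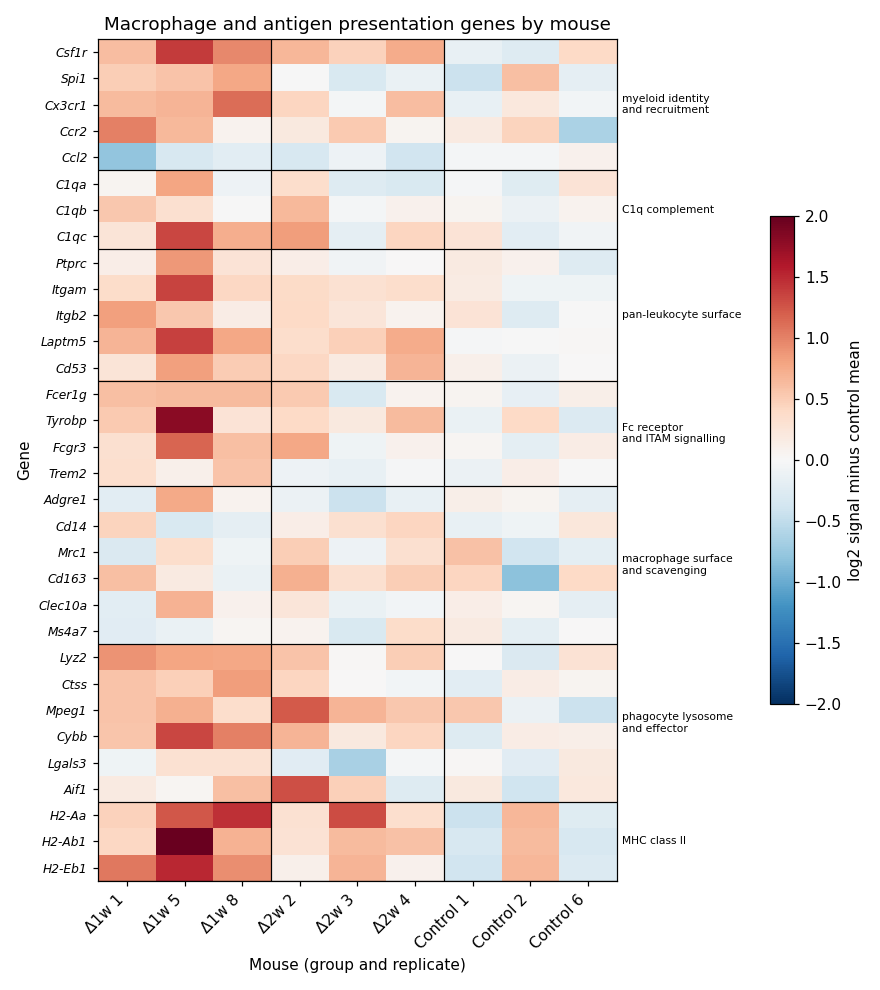
Each cell is the log2 signal of 1 gene (rows, grouped by role) in 1 mouse (columns), minus the mean of the 3 control mice for that gene, with red above and blue below the control mean. The Δ1w columns are red in most roles, with Δ1w replicate 5 the highest mouse for 14 of 32 genes, while the rows of macrophage surface and scavenging receptors are mixed.

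Single mice show where this difference lay. The mean signal over the 32 members was 8.00, 8.39, and 8.08 in Δ1w muscle and 8.02, 7.76, and 7.86 in Δ2w muscle, against 7.66, 7.64, and 7.61 in control muscle. Every mouse of both models was above every control mouse, and the Δ1w and Δ2w mice overlapped. The highest of the 9 mice was a Δ1w mouse for 25 members (37.6% of gene rows), a Δ2w mouse for 5 (25.8%), and a control mouse for 2 (36.6%). The lowest was a Δ1w mouse for 3 members (38.4% of gene rows), a Δ2w mouse for 6 (26.4%), and a control mouse for 23 (35.2%). Δ1w replicate 5 alone was highest for 14 members, beside 13.26% of gene rows. Without this mouse the median change of the members in Δ1w muscle was 0.45, and 12 members were higher at an unadjusted p under 0.05.

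The role named for surface proteins of leukocytes contained the called gene, although the product of that gene lies in lysosomes. *Laptm5*, which encodes a lysosomal membrane protein of blood-derived cells, was at 10.27, 10.96, and 10.36 in Δ1w muscle and at 9.94, 10.06, and 10.33 in Δ2w muscle, against 9.57, 9.59, and 9.61 in control muscle. The control mice had an SD of 0.02 (n = 3), and every mouse of both models was above all of them. *Laptm5* was 1.91-fold higher in Δ1w muscle (log2 change 0.94, standard error 0.20, adjusted p = 0.0455 from limma) and 1.43-fold higher in Δ2w muscle (log2 change 0.52, standard error 0.20, adjusted p = 0.603), where it was not called. The call in Δ1w muscle was lost when any 1 of 8 mice was left out: adjusted p was 0.127, 0.120, and 0.111 without control replicates 1, 2, and 6, 0.136 and 0.0891 without Δ1w replicates 5 and 8, and 0.0690, 0.0759, and 0.0608 without Δ2w replicates 2, 3, and 4. Without Δ1w replicate 1 it was 0.0271, and with the prefix of the sample name as a random block it was 0.0924. The log2 change stayed between 0.72 and 1.07.

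The promoter of *Laptm5* is shown because it belongs to the called member and carries 2 of the 3 letter runs that were searched on both strands. These runs are CCAAT, the box bound by NF-Y, GGAAGT, a core bound by ETS factors such as PU.1, and TAGCAAC, a core of the X box of MHC class II promoters. The window is RefSeq sequence of GRCm38.p6 from 250 bases before to 50 bases after the annotated start, at chr4:130913066-130913365 on the plus strand, with the matches in capitals (CCAAT reads ATTGG on the other strand).
Laptm5: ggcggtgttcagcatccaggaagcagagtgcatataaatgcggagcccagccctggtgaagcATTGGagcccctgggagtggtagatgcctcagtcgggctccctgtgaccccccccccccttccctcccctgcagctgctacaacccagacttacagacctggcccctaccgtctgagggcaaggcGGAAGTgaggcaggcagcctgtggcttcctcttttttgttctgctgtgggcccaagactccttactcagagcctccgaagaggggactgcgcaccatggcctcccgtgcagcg
The CCAAT match lay 188 to 184 bases before the start on the other strand and GGAAGT lay 63 to 58 bases before it. Of 22 members with such a window, 12 held CCAAT, 9 held GGAAGT, and 2 held TAGCAAC, beside 37.4%, 23.8%, and 3.66% of 32851 windows. Members were counted by gene, with a match in any window enough, whereas the percentages count single windows. The counts and percentages are therefore unlike measures, and no excess was tested. A match is only a run of letters, and these windows were not measured for binding.

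The other 4 leukocyte genes had positive changes in Δ1w muscle, and none passed the adjusted test. *Itgam*, the CD11b integrin chain of myeloid cells, was at 6.71, 7.70, and 6.76 in Δ1w muscle and at 6.72, 6.65, and 6.70 in Δ2w muscle, against 6.51, 6.25, and 6.26 in control muscle. Both models lay above all control mice, with Δ1w replicate 5 far above the other mice. The log2 change was 0.71 in Δ1w muscle (standard error 0.24, adjusted p = 0.192) and 0.39 without that mouse, and 0.34 in Δ2w muscle (standard error 0.24, adjusted p = 0.784). *Ptprc*, which encodes the pan-leukocyte phosphatase CD45, was at 7.68, 8.40, and 7.81 in Δ1w muscle and at 7.68, 7.48, and 7.55 in Δ2w muscle, against 7.71, 7.63, and 7.29 in control muscle. Here the Δ1w and control mice overlapped, with a log2 change of 0.42 (standard error 0.21, adjusted p = 0.402), and the change in Δ2w muscle was 0.03. *Cd53*, a tetraspanin of leukocytes, and *Itgb2*, the integrin chain that pairs with CD11b, had log2 changes of 0.52 and 0.50 in Δ1w muscle and of 0.43 and 0.24 in Δ2w muscle.

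Among the genes of myeloid identity and recruitment, *Csf1r* came closest to a call. It was at 9.24, 10.02, and 9.58 in Δ1w muscle and at 9.29, 9.09, and 9.36 in Δ2w muscle, against 8.48, 8.37, and 9.02 in control muscle. Every mouse of both models was above every control mouse. The receptor was 1.99-fold higher in Δ1w muscle (log2 change 0.99, standard error 0.23, adjusted p = 0.0615) and 1.54-fold higher in Δ2w muscle (log2 change 0.63, standard error 0.23, adjusted p = 0.595). It passed the adjusted test without Δ1w replicate 1 (adjusted p = 0.0264), but not without any other mouse (adjusted p 0.0523 to 0.199 by limma). *Cx3cr1*, the fractalkine receptor of monocytes and macrophages, was at 4.99, 5.03, and 5.46 in Δ1w muscle and at 4.78, 4.30, and 4.96 in Δ2w muscle, against 4.19, 4.56, and 4.29 in control muscle. The Δ1w mice lay above all other mice, at signals below the median of the negative probes (log2 change 0.81 from control, standard error 0.21, adjusted p = 0.0919).

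*Spi1* and the chemokine axis of monocyte entry were less uniform. *Spi1* was at 11.78, 11.86, and 12.06 in Δ1w muscle and at 11.29, 10.98, and 11.16 in Δ2w muscle, against 10.86, 11.90, and 11.11 in control muscle. Control replicate 2 was as high as the Δ1w mice, so those groups overlapped, while the Δ1w and Δ2w mice did not. The log2 change was 0.61 in Δ1w muscle (standard error 0.24, adjusted p = 0.281) and −0.15 in Δ2w muscle (standard error 0.24, adjusted p = 0.928). *Ccl2*, the chemokine that draws monocytes from blood, was at 6.07, 6.55, and 6.66 in Δ1w muscle and at 6.54, 6.76, and 6.48 in Δ2w muscle, against 6.82, 6.83, and 6.95 in control muscle. All mice of both models lay below all control mice, with log2 changes of −0.44 (standard error 0.19, adjusted p = 0.314) and −0.27 (standard error 0.19, adjusted p = 0.775). *Ccr2*, its receptor, had log2 changes of 0.58 in Δ1w muscle and 0.26 in Δ2w muscle, with adjusted p of 0.424 and 0.883.

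Fc receptors and their adaptors were at higher signal in Δ1w muscle. Of these 4 genes, 0 were called higher (0.905% of gene rows) or lower (0.500%), which is near these shares. *Fcer1g*, the shared gamma chain of Fc receptors, was at 8.84, 8.87, and 8.87 in Δ1w muscle and at 8.77, 7.93, and 8.30 in Δ2w muscle, against 8.29, 8.08, and 8.35 in control muscle. The Δ1w mice differed little among themselves and lay above all others (log2 change 0.62 from control, standard error 0.21, adjusted p = 0.185). *Fcgr3*, a low-affinity receptor for IgG, was at 9.61, 10.45, and 9.88 in Δ1w muscle and at 10.05, 9.20, and 9.37 in Δ2w muscle, against 9.33, 9.09, and 9.43 in control muscle. The Δ1w mice were above the control mice and overlapped the Δ2w mice (log2 change 0.70 from control, standard error 0.26, adjusted p = 0.247). *Tyrobp*, which encodes the adaptor DAP12, differed from control by a log2 change of 0.86 ± 0.34 (standard error, adjusted p = 0.278) in Δ1w muscle, with Δ1w replicate 5 at 7.54 and the other Δ1w mice at 6.26 and 6.00. The mean signal of *Tyrobp* exceeded only 53.5% of the negative probes. *Trem2*, a lipid receptor that signals through DAP12, had a log2 change of 0.33 and was near background. In Δ2w muscle the 4 genes had log2 changes between −0.09 and 0.41.

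The 3 chains of C1q, the first component of the classical complement pathway and a product of tissue macrophages, differed in size of change. *C1qc* was at 7.65, 8.71, and 8.11 in Δ1w muscle and at 8.22, 7.21, and 7.81 in Δ2w muscle, against 7.66, 7.18, and 7.32 in control muscle. *C1qb* was at 8.19, 7.97, and 7.66 in Δ1w muscle and at 8.30, 7.61, and 7.74 in Δ2w muscle, against 7.71, 7.53, and 7.73 in control muscle. In both genes the groups overlapped, and the Δ1w mice spanned more than their change from control. The log2 change in Δ1w muscle was 0.77 for *C1qc* (standard error 0.30, adjusted p = 0.265), 0.28 for *C1qb* (standard error 0.21, adjusted p = 0.611), and 0.25 for *C1qa* (standard error 0.26, adjusted p = 0.741). In Δ2w muscle these changes were 0.36, 0.23, and −0.07.

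Phagocyte lysosome and effector genes included a pair near the threshold. *Cybb*, which encodes gp91phox, the catalytic subunit of the phagocyte oxidase, was at 9.34, 10.12, and 9.79 in Δ1w muscle and at 9.47, 8.98, and 9.21 in Δ2w muscle, against 8.52, 8.93, and 8.90 in control muscle. Every mouse of both models was above every control mouse, and *Cybb* was 1.95-fold higher in Δ1w muscle (log2 change 0.96, standard error 0.22, adjusted p = 0.0615) and 1.35-fold higher in Δ2w muscle (log2 change 0.44, standard error 0.22, adjusted p = 0.704). It passed the adjusted test without Δ1w replicate 1 (adjusted p = 0.0202), but not without any other mouse (adjusted p 0.084 to 0.201 by limma). *Lyz2*, the lysozyme of macrophages and other myeloid cells, was at 11.92, 11.82, and 11.80 in Δ1w muscle and at 11.59, 11.05, and 11.52 in Δ2w muscle, against 11.03, 10.74, and 11.32 in control muscle. The Δ1w mice had an SD of 0.06 (n = 3) and lay above all other mice. The log2 change was 0.82 in Δ1w muscle (1.77-fold, standard error 0.20, adjusted p = 0.0725) and 0.36 in Δ2w muscle (standard error 0.20, adjusted p = 0.722).

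The remaining effector genes spread widely. *Ctss*, which encodes cathepsin S, differed from control by a log2 change of 0.63 ± 0.19 (standard error, adjusted p = 0.144) in Δ1w muscle with no overlap with control, and 0.13 in Δ2w muscle. *Mpeg1*, a pore-forming protein of macrophages, was at 6.14, 6.29, and 5.93 in Δ1w muscle and at 6.81, 6.26, and 6.11 in Δ2w muscle, against 6.11, 5.47, and 5.16 in control muscle. It had the smallest unadjusted p of the members in Δ2w muscle (log2 change 0.81, standard error 0.26, adjusted p = 0.544), but a Δ2w mouse lay just below control replicate 1. The mean signal of *Mpeg1* exceeded only 50.7% of the negative probes, so its change was also measured near background. *Aif1*, which encodes the macrophage marker IBA1, had log2 changes of 0.27 in Δ1w muscle and 0.50 in Δ2w muscle, where its SD among mice was 0.78 (n = 3). *Lgals3*, which encodes galectin-3, had log2 changes of 0.18 and −0.31 near background.

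**Figure D2:**
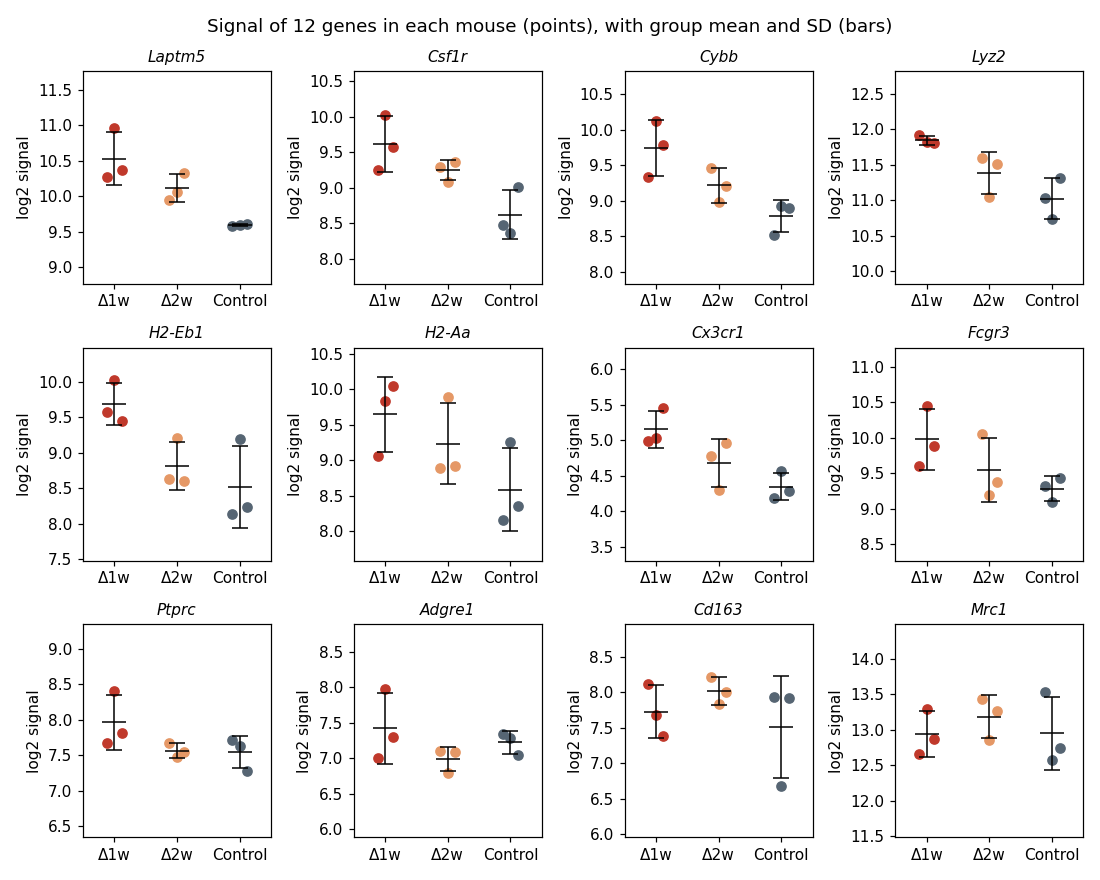
Points are the log2 signals of 12 members in the 3 mice of each group, and bars are the group mean with SD; each panel spans 3 log2 units, so slopes can be compared between panels. *Laptm5*, *Csf1r*, *Cybb*, *Lyz2*, *H2-Eb1*, *Cx3cr1*, and *Fcgr3* have no overlap between Δ1w and control mice, whereas the other 5 genes overlap.

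The 3 MHC class II genes had the largest changes in Δ1w muscle of any role, with a median log2 change of 1.06. None was called higher (0.905% of gene rows) or lower (0.500%), which for 3 genes is near these shares. *H2-Eb1*, a beta chain, was at 9.58, 10.02, and 9.45 in Δ1w muscle and at 8.63, 9.20, and 8.61 in Δ2w muscle, against 8.13, 9.19, and 8.24 in control muscle. The Δ1w mice were above all other mice, and control replicate 2 stood well above the other control mice. *H2-Eb1* was 2.24-fold higher in Δ1w muscle (log2 change 1.16, standard error 0.29, adjusted p = 0.0731), and without control replicate 2 it passed the adjusted test (log2 change 1.50, adjusted p = 0.0220). With any other mouse left out, *H2-Eb1* was not called (adjusted p 0.0818 to 0.238 by limma). *H2-Aa*, an alpha chain, was at 9.06, 9.84, and 10.05 in Δ1w muscle and at 8.89, 9.89, and 8.93 in Δ2w muscle, against 8.16, 9.26, and 8.35 in control muscle. *H2-Ab1*, the beta chain that pairs with it, was at 9.46, 11.02, and 9.74 in Δ1w muscle and at 9.33, 9.68, and 9.63 in Δ2w muscle, against 8.73, 9.68, and 8.73 in control muscle. In both genes control replicate 2 lay above the lowest mouse of each model, so the groups overlapped. Their log2 changes in Δ1w muscle were 1.06 (standard error 0.36, adjusted p = 0.188) and 1.03 (standard error 0.37, adjusted p = 0.227). In Δ2w muscle the log2 changes were 0.29 for *H2-Eb1*, 0.65 for *H2-Aa*, and 0.50 for *H2-Ab1*, with adjusted p of 0.853, 0.719, and 0.802.

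Averaged over these 3 genes, the mice were at 9.36, 10.29, and 9.75 in Δ1w muscle and at 8.95, 9.59, and 9.06 in Δ2w muscle, against 8.34, 9.38, and 8.44 in control muscle. Control replicate 2 was thus within the range of both models for MHC class II, although it was the lowest mouse for 11 of the 32 members, among them *Csf1r* and *Cd163*. The promoters of *H2-Aa* and *H2-Eb1* are shown because MHC class II genes share promoter boxes and these genes had the largest changes. Both windows are RefSeq sequence of GRCm38.p6, at chr17:34287774-34288073 on the minus strand for *H2-Aa* and at chr17:34305617-34305916 on the plus strand for *H2-Eb1*, with the same 3 letter runs in capitals.
H2-Aa: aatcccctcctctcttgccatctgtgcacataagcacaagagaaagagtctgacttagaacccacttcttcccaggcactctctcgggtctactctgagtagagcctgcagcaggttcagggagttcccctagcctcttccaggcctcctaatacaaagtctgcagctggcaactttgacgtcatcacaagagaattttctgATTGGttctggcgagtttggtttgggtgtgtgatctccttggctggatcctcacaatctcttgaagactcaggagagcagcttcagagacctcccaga
H2-Eb1: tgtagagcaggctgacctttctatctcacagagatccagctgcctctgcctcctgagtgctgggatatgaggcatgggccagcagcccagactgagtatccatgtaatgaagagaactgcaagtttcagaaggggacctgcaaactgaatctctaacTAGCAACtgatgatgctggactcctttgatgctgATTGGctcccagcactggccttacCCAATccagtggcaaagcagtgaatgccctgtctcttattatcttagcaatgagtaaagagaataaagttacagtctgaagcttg
*H2-Aa* held CCAAT on the other strand at 48 to 44 bases before the start. Only exact runs were searched, so a window without a mark can still hold a variant of a box. In *H2-Eb1*, TAGCAAC lay 93 to 87 bases before the start, and CCAAT lay at 59 to 55 bases on the other strand and at 35 to 31 bases on the same strand.

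Receptors that mark macrophages of the tissue and their scavenging functions had a median log2 change of 0.09 in Δ1w muscle and 0.14 in Δ2w muscle. None of the 6 had an unadjusted p under 0.05, with 0 higher and 0 lower in Δ1w muscle (7.20% and 6.79% of gene rows) or in Δ2w muscle (3.98% and 3.49%), and a count of 0 among 6 genes is near these shares. *Mrc1*, which encodes the mannose receptor CD206, was at 12.65, 13.30, and 12.87 in Δ1w muscle and at 13.44, 12.85, and 13.27 in Δ2w muscle, against 13.53, 12.57, and 12.75 in control muscle. The 3 groups overlapped throughout, and the log2 change in Δ1w muscle was −0.01 (95% interval −0.60 to 0.58). *Adgre1*, the macrophage marker recognised by the F4/80 antibody, was at 7.01, 7.98, and 7.30 in Δ1w muscle and at 7.11, 6.80, and 7.08 in Δ2w muscle, against 7.34, 7.28, and 7.05 in control muscle. Its log2 change was 0.20 in Δ1w muscle (95% interval −0.31 to 0.71, adjusted p = 0.763), and −0.07 without Δ1w replicate 5. *Cd163*, the receptor for hemoglobin bound to haptoglobin, was at 8.12, 7.68, and 7.38 in Δ1w muscle and at 8.21, 7.83, and 8.01 in Δ2w muscle, against 7.93, 6.68, and 7.91 in control muscle. Control replicate 2 was the lowest mouse, and the log2 change in Δ1w muscle was 0.22 (95% interval −0.47 to 0.90) with it and −0.20 without it.

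The other 3 genes of this role behaved alike. *Clec10a*, a lectin for galactose-type sugars, was at 7.14, 8.05, and 7.44 in Δ1w muscle and at 7.60, 7.22, and 7.30 in Δ2w muscle, against 7.49, 7.40, and 7.18 in control muscle. The groups overlapped, with log2 changes of 0.19 ± 0.23 (standard error, adjusted p = 0.778) in Δ1w muscle and 0.02 in Δ2w muscle. *Cd14*, a co-receptor for bacterial lipopolysaccharide, had log2 changes of −0.02 and 0.30, and *Ms4a7*, a membrane protein of macrophages, had −0.11 and 0.05. The 95% intervals of these 6 genes in Δ1w muscle reached up to 0.90 and down to −0.60 (the upper limit that of *Cd163*, the lower that of *Mrc1*).

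**Figure D3:**
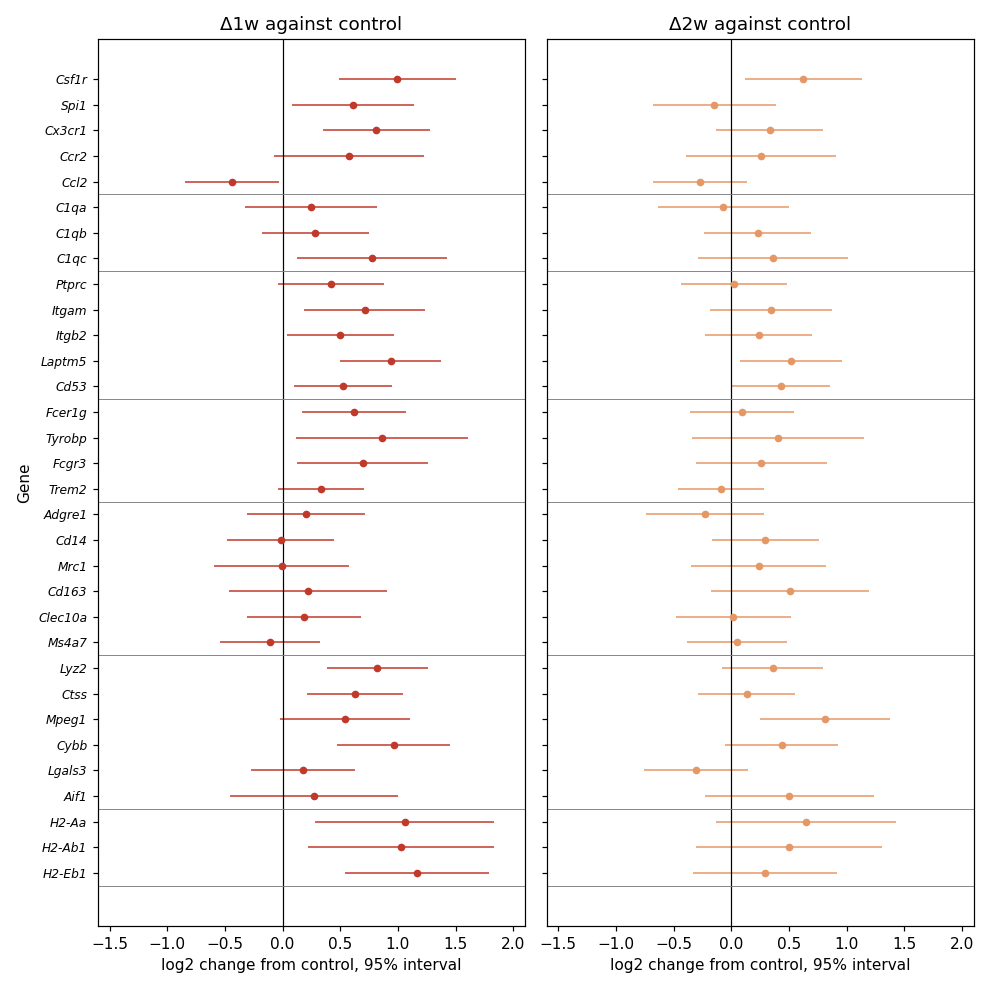
Points are log2 changes from control and lines their 95% intervals from limma, unadjusted for the number of genes, for the 32 members in Δ1w muscle (left) and Δ2w muscle (right), with grey lines between roles. In Δ1w muscle 17 intervals lie above 0, and in Δ2w muscle 4 do.

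In Δ2w muscle the members were shifted less. The median log2 change was 0.28 (−0.0044 over all gene rows), and 26 of 32 members had a positive change (49.3% of gene rows). By limma's adjusted p, 0 members were called higher (0.0360% of gene rows) and 0 lower (0.00901%), with the smallest adjusted p at 0.544. At an unadjusted p under 0.05, *Csf1r*, *Laptm5*, *Cd53*, and *Mpeg1* were higher (3.98% of gene rows) and 0 members were lower (3.49%). That count was 1 without control replicate 1, 7 without Δ2w replicate 3, and 2 without Δ2w replicate 4. In 5 members all Δ2w mice were above all control mice (7.52% of gene rows) and in *Ccl2* all were below (7.25%). The median change was 0.14 without Δ2w replicate 2. Among the Δ2w mice and the control replicates that share 1 name prefix, the median was 0.21 and 0 members were called.

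Compared directly, Δ1w muscle was above Δ2w muscle in 25 of 32 members (50.1% of gene rows), with a median log2 difference of 0.40 (0.0009 over all gene rows). By limma's adjusted p, 0 members were called higher in Δ1w muscle (0.00450% of gene rows) or lower (0%), the smallest being 0.447 for *Spi1*. At an unadjusted p under 0.05, 9 members were higher in Δ1w muscle (4.30% of gene rows) and 0 lower (3.99%), and in 8 the Δ1w mice lay above all Δ2w mice (7.20%), while in 0 they lay below (6.97%). The count of 9 was 14 without Δ1w replicate 1, 5 without Δ1w replicate 5, 3 without Δ1w replicate 8, and 2 without Δ2w replicate 3, and the median was 0.16 without Δ1w replicate 5 and 0.29 without Δ2w replicate 3. The differences were 0.87 for *H2-Eb1* (standard error 0.29, adjusted p = 0.455), 0.76 for *Spi1* (standard error 0.24, adjusted p = 0.447), and 0.53 for *Fcer1g* (standard error 0.21, adjusted p = 0.530).

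Genes around these pathways that are not members gave a mixed picture. Of 15 other genes of resident macrophages, 2 rose in Δ1w muscle by the adjusted test (0.905% of gene rows) and 0 fell (0.500%). At an unadjusted p under 0.05, 6 were higher (7.20% of gene rows) and 1, *Maf*, was lower (6.79%). *Axl*, a receptor tyrosine kinase by which macrophages and other cells bind dying cells, was at 10.88, 11.41, and 11.19 in Δ1w muscle and at 10.43, 9.81, and 10.76 in Δ2w muscle, against 9.85, 9.31, and 10.13 in control muscle (1.40 on the log2 scale for Δ1w against control, standard error 0.27, adjusted p = 0.0296 by limma). *Cbr2*, a carbonyl reductase gene, was at 9.58, 8.89, and 9.07 in Δ1w muscle and at 9.08, 8.42, and 8.57 in Δ2w muscle, against 8.24, 8.01, and 8.06 in control muscle (1.08 on the log2 scale for Δ1w against control, standard error 0.22, adjusted p = 0.0397 by limma). In both genes the Δ1w mice were above all control mice. The call of *Axl* was lost without control replicate 1 or 2, Δ1w replicate 5 or 8, or Δ2w replicate 2 (adjusted p 0.0505 to 0.123), and that of *Cbr2* without any mouse except Δ2w replicate 2 (adjusted p 0.0518 to 0.122). With the prefix of the sample name as a random block, neither gene was called (adjusted p = 0.0551 for *Axl* and 0.0661 for *Cbr2*). Beside these 2 genes, the 6 were *Folr2*, *Timd4*, *Pf4*, and *Gas6*, which encode a folate receptor, a receptor for phosphatidylserine, a chemokine, and the ligand of the *Axl* receptor. Their log2 changes in Δ1w muscle were 0.90, 0.79, 0.76, and 0.48, with adjusted p of 0.153, 0.111, 0.114, and 0.206. The median over the 15 genes was 0.23 in Δ1w muscle and 0.27 in Δ2w muscle.

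Of the ligands of the *Csf1r* receptor, *Csf1* was at 10.92, 11.73, and 11.11 in Δ1w muscle and at 10.54, 10.71, and 10.65 in Δ2w muscle, against 10.13, 10.26, and 10.51 in control muscle. The mice of both models were above all control mice, with log2 changes of 0.95 (standard error 0.22, adjusted p = 0.0554) and 0.34 (standard error 0.22, adjusted p = 0.760). *Il34*, the other ligand, had log2 changes of −0.27 and −0.09. Across the 12 growth factor and cytokine genes measured, the median log2 change was 0.01 in Δ1w muscle and 0.19 in Δ2w muscle, and 0 were called. Of 13 chemokine genes, 0 were called, with *Ccl9* 0.92 higher in Δ1w muscle on the log2 scale (adjusted p = 0.121). The median was 0.41 for 8 other complement and Fc receptor genes, 0.24 for 10 genes of repair and lipid handling, and 0.27 for 7 monocyte markers in Δ1w muscle, and none of these was called. Over all gene rows, 0.905% were called higher and 0.500% lower in Δ1w muscle. In Δ2w muscle the shares were 0.0360% and 0.00901%, so 0 calls in lists of this size is near the shares.

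Other genes of antigen presentation had smaller changes. Among 9 further genes of the MHC class II pathway and costimulation the median log2 change was 0.05 in Δ1w muscle and −0.06 in Δ2w muscle, and 0 were called. *Ciita*, the transactivator of MHC class II genes, had log2 changes of −0.03 and −0.06 and a signal below the median of the negative probes on every array. The costimulatory gene *Cd86* differed from control by a log2 change of 0.72 ± 0.22 (standard error, adjusted p = 0.138) in Δ1w muscle and 0.37 in Δ2w muscle. For 10 genes of MHC class I presentation the median was 0.32 in Δ1w muscle and 0.07 in Δ2w muscle, and 0 were called. Both counts of 0 are near the shares of all gene rows called higher or lower in Δ1w muscle (0.905% and 0.500%) and in Δ2w muscle (0.0360% and 0.00901%). The immunoproteasome gene *Psmb8* differed from control by a log2 change of 0.62 ± 0.21 (standard error, adjusted p = 0.193) in Δ1w muscle.

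**Figure D4:**
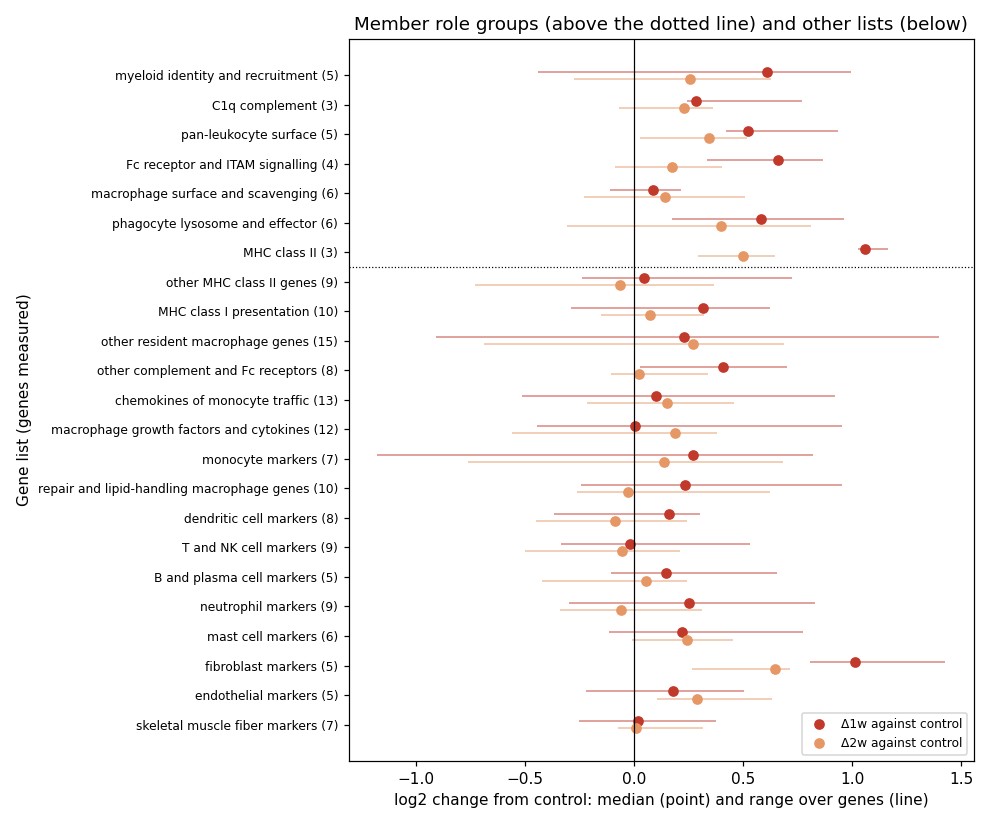
Points are the median log2 change from control of each gene list, and lines run from its lowest to its highest gene, for Δ1w and Δ2w muscle; the number of genes measured is in parentheses. The 3 MHC class II genes and the 5 fibroblast markers have the largest medians in Δ1w muscle, at 1.06 and 1.01, and T and NK cell markers lie at −0.02.

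Markers of other cell types were read on the same arrays. Fibroblast markers were on average at higher signal in both models, as the members were. The 5 measured (*Col1a1*, *Col3a1*, *Dcn*, *Lum*, and *Dpt*) averaged 15.62, 16.53, and 16.40 in Δ1w muscle and 15.85, 15.30, and 15.73 in Δ2w muscle, against 15.20, 14.61, and 15.39 in control muscle. Their median log2 change was 1.01 in Δ1w muscle and 0.65 in Δ2w muscle, and *Dpt*, which encodes dermatopontin, was called in Δ1w muscle (log2 change 1.43, standard error 0.27, adjusted p = 0.0270 from limma). That call was lost without control replicate 1 or 2 or Δ1w replicate 5 or 8 (adjusted p 0.0855 to 0.114). The part of fibroblasts in the results on the members was not tested.

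Other blood cell types had small median shifts in Δ1w muscle, while single genes ranged more widely. Log2 changes ran from −0.11 to 0.78 for mast cell markers and from −0.30 to 0.83 for neutrophil markers. The highest were *Cpa3* (adjusted p = 0.465 by limma) and *S100a8* (adjusted p = 0.357 by limma), and in *Cpa3* every Δ1w mouse lay above every control mouse. The median log2 change was −0.02 for 9 T and NK cell markers, 0.15 for 5 B and plasma cell markers, 0.25 for 9 neutrophil markers, 0.16 for 8 dendritic cell markers, and 0.22 for 6 mast cell markers. In these lists 0 genes were called in either model, near the shares of gene rows called higher or lower in Δ1w muscle (0.905% and 0.500%) and in Δ2w muscle (0.0360% and 0.00901%). The mean signal of T and NK cell, B and plasma cell, neutrophil, and dendritic cell markers lay between 4.15 and 5.17 in every mouse. These means were below the median of the negative probes. Endothelial markers had a median of 0.18 and skeletal muscle fiber markers of 0.02 in Δ1w muscle. The part of these cell types in the results on the members was not tested.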

How the data were processed

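Total RNA of TA muscle from 9 mice, 1 Clariom S Mouse array each, gave the deposited log2 signals, which the authors made by sst-rma: background adjustment, normalization across arrays, and 1 value per gene. Affymetrix Expression Console is the tool in the submitters' processing notes. No source used here names the genome build. Whether replicates of a group shared a litter is not given, and 3 arrays per group limit the precision.

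Of 28846 rows, 6640 control rows were left out of tests. A single linear model of the 3 groups was fitted by lmFit and eBayes (limma 3.58.1, R 4.3.3). Benjamini-Hochberg adjustment covered 22206 gene rows, and calls were made at an adjusted p under 0.05. Groups came from the genotype and treatment labels. The members and all gene lists were chosen with earlier results of these data known. Values in every mouse are given for called members, for the 2 members of each role with the smallest p in Δ1w muscle, and for *Csf1r*, *Adgre1*, *Cd163*, and *Ptprc*. Of other lists, called genes are named, or else up to 2 with the smallest p. *Spi1*, *Ccl2*, *Mpeg1*, *Mrc1*, *H2-Ab1*, *Il34*, *Ciita*, *Folr2*, *Timd4*, *Pf4*, *Gas6*, and *Maf* were added after their values were seen. Where a symbol has several rows, the row with the highest mean is used. The model was tested on simulated data. Promoters are RefSeq windows of GRCm38.p6, and Python 3.11.15 with matplotlib 3.10.9 drew the figures.

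Alternatives were: each mouse left out in turn; array weights; a variance that is trended and robust; a model of only the pair of groups compared; repeated quantile normalization; median centring; a floor of 6 on the mean log2 signal; the sample name prefix as a random block, and Δ2w against control among mice of 1 prefix; a covariate for the LacZ allele or for Y-linked genes; the mean of all rows of a symbol; and the unpaired t-test that the methods name for data in general.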

Additional observations from a re-analysis of the deposited data

How the results depend on the processing

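The median change of the members kept its sign under every alternative, at 0.45 to 0.61 in Δ1w and 0.14 to 0.34 in Δ2w muscle against control and at 0.16 to 0.53 between Δ1w and Δ2w. The count of 1 member called in Δ1w muscle ran from 0 to 3 when 1 mouse was left out. It was 0 with the prefix of the sample name as a random block, a fit of only the pair of groups compared, array weights, quantile normalization, median centring, Y-linked genes as a covariate, or the methods' t-test after Benjamini-Hochberg, 2 (*Laptm5* and *Csf1r*) with the LacZ allele as a covariate, and 5 (*Laptm5*, *Csf1r*, *Cybb*, *Lyz2*, and *H2-Eb1*) with a minimum mean signal of 6, which tested 12119 rows, or with a trended and robust variance. The count of all gene rows called in Δ1w muscle moved as well. It rose with the minimum mean signal of 6, a trended and robust variance, the LacZ covariate, or without Δ1w replicate 1. It fell when any other mouse was left out. Array weights, the prefix as a block, a fit of the pair, and the methods' t-test also lowered it. With median centring it barely moved. Such shifts in calls were therefore not confined to the members. *Laptm5* was called in 5 of 20 alternatives (adjusted p 0.0225 to 0.415). No alternative called a member in the other comparisons. Counts at an unadjusted p under 0.05 also moved. In Δ1w muscle 17 members became 9 with the methods' t-test and 12 to 18 when 1 mouse was left out. In Δ2w muscle 4 became 1 to 7 when 1 mouse was left out, 8 within the shared prefix, and 2 with the LacZ covariate. Between Δ1w and Δ2w 9 became 2 to 14 when 1 mouse was left out, 4 with the prefix as a block, and 3 with the methods' t-test. Except where fewer rows or mice entered, the cause was not tested.

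Uncalled changes near 0 turned sign in places when 1 mouse was left out. Against control in Δ1w muscle, *Cd163* ran from −0.20 to 0.43, *Adgre1* from −0.074 to 0.41, and *Clec10a* from −0.067 to 0.39. In Δ2w muscle, *Fcer1g* ran from −0.12 to 0.30, *Clec10a* from −0.093 to 0.093, and *Ptprc* from −0.10 to 0.11. Between Δ1w and Δ2w, *C1qb* ran from −0.082 to 0.26 and *Clec10a* from −0.085 to 0.37. With the LacZ covariate, *Clec10a* and *Ptprc* were −0.098 and −0.063 in Δ2w muscle, and *Cd163* was 0.10 between Δ1w and Δ2w. No paired analysis was made, because the labels give no pairing of mice between groups and a replicate number does not pair them.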

Other observations

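*Retnla*, a secreted protein made by alternatively activated macrophages and by other cells, spread more between mice than any change of a member. It was at 12.08, 12.75, and 10.18 in Δ1w muscle and at 11.01, 11.57, and 11.02 in Δ2w muscle, against 12.30, 12.48, and 9.33 in control muscle, and was chosen after its values were seen. Δ1w replicate 8 and control replicate 6 were the lowest mice, and the log2 change from control was 0.30 in Δ1w muscle (standard error 0.77, adjusted p = 0.912) and −0.17 in Δ2w muscle (standard error 0.77, adjusted p = 0.977). These 2 mice were also the ones of their groups with low Y-linked genes (means 4.33 and 3.76). Δ2w replicate 4, likewise low in Y-linked genes (4.09), was not the lowest Δ2w mouse for *Retnla*. A link of *Retnla* with Y-linked signal was not tested. *Maf*, a transcription factor of resident macrophages and other cells, had the opposite direction to most members, at 9.96, 10.74, and 10.05 in Δ1w muscle and at 11.09, 10.78, and 10.75 in Δ2w muscle, against 11.42, 10.99, and 11.06 in control muscle. All Δ1w mice were below all control mice (log2 change −0.91, standard error 0.23, adjusted p = 0.0774), and *Maf* was not called.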
